A study of Mus musculus with 8 samples.

Results

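The type 2 cytokine circuit of tuft cells was followed through 9 of the 35199 genes in a count table of sorted intestinal tuft cells. The 9 genes were chosen by symbol and not by a rule on their values, though earlier results of these data were known. They are the epithelial cytokines Il25, Tslp and Il33, the receptor chains Il17rb, Il17ra, Il4ra, Il13ra1 and Il13ra2, and the transcription factor Stat6. The study blocked muscarinic acetylcholine receptors in mice and asked how tuft cells respond. The samples compared here were jejunal cells positive for ZSgreen, sorted as live and high for the epithelial surface marker from Dclk1-DTR-ZSgreen mice, with 1 library from each of 4 scopolamine-treated and 4 sham-treated mice. All 8 mice, sham included, carried a transgene in which Dclk1 regulatory sequence on a bacterial artificial chromosome drives the diphtheria toxin receptor and ZSgreen, so the sort selects cells in which this transgene is active. Scopolamine, a nonselective muscarinic receptor antagonist that acts on the whole animal, was delivered by implanted osmotic pump for 7 days at a daily dose of 0.5 mg per kg, and sham mice received sodium chloride. Pumps were placed at 8 to 10 weeks of age. Mice of both sexes were used in the study and the sex of each mouse is not labelled. RNA came from 3000 sorted cells for scopolamine replicate 1 and sham replicate 1 and from 4000 cells for the others.

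Tuft cells, rare epithelial cells of the gut that sense luminal compounds, are its main source of the cytokine IL-25. IL-25 binds a receptor made of IL-17RB and IL-17RA on group 2 innate lymphoid cells, which answer with IL-13, and IL-13 and IL-4 act back on the epithelium through a receptor of IL-4Rα and IL-13Rα1 whose signal is carried by STAT6. In worm and protist infection this loop drives the expansion of tuft and goblet cells, and TSLP and IL-33 are epithelial cytokines that act on the same lymphoid cells.

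Total estimated counts ran from 14343362 to 20857433 in the scopolamine libraries and from 25769940 to 41428916 in the sham libraries, so every sham library was deeper and the effects of depth and treatment cannot be told apart. Sham replicates 1 and 3 were amplified from 200 pg of RNA with 15 cycles, and the other 6 libraries from 1000 pg with 10 cycles. All 15 tuft cell markers on a fixed list, Dclk1 among them, passed the expression filter, and their summed level ran from 13826 to 23984 CPM with scopolamine and from 17454 to 20797 CPM in sham. CPM, the unit of level used throughout unless a value is given per length, is the count of a gene per 1000000 counts of its library after scaling by the TMM factors of edgeR. Enterocyte markers were also present, at a summed 3301 to 7099 CPM with scopolamine and 2559 to 6685 CPM in sham.

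Of the 9 genes, 7 were above 3 counts in every library and passed the filter, and 2 were not detectable above that floor. The 7 detected genes were Il25, Tslp, Il17rb, Il17ra, Il4ra, Il13ra1 and Stat6. None of them differed between scopolamine and sham beyond the spread between mice. With edgeR's quasi-likelihood test, 0 of the 7 had a Benjamini-Hochberg adjusted p under 0.1, as did 0% of all 12849 genes tested, and the adjusted p of the 7 ran from 0.903 to 0.996. At an unadjusted p under 0.05 there were also 0 of 7, against 5.99% of all genes. DESeq2 called 0 of 7 with a smallest adjusted p of 0.758, against 1.35% of the genes it tested, and limma-voom called 0 of 7 and 0% of all genes. In 0 of the 7 did all scopolamine libraries lie on 1 side of all sham libraries, where 3.88% of all genes tested showed such a separation (1.92% higher and 1.95% lower with scopolamine). The log2 fold change of scopolamine over sham was below 0 for 5 of 7, against 50.9% of all genes, with a median of -0.13 against -0.011 over all genes. Scaling the libraries to the tuft markers moved the median of all genes by 0.23, and 2 of the 7 were then below 0. Since whole sorted populations were measured, fewer cells of a type and less RNA per cell cannot be told apart in any of these values.

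**Figure D1:**
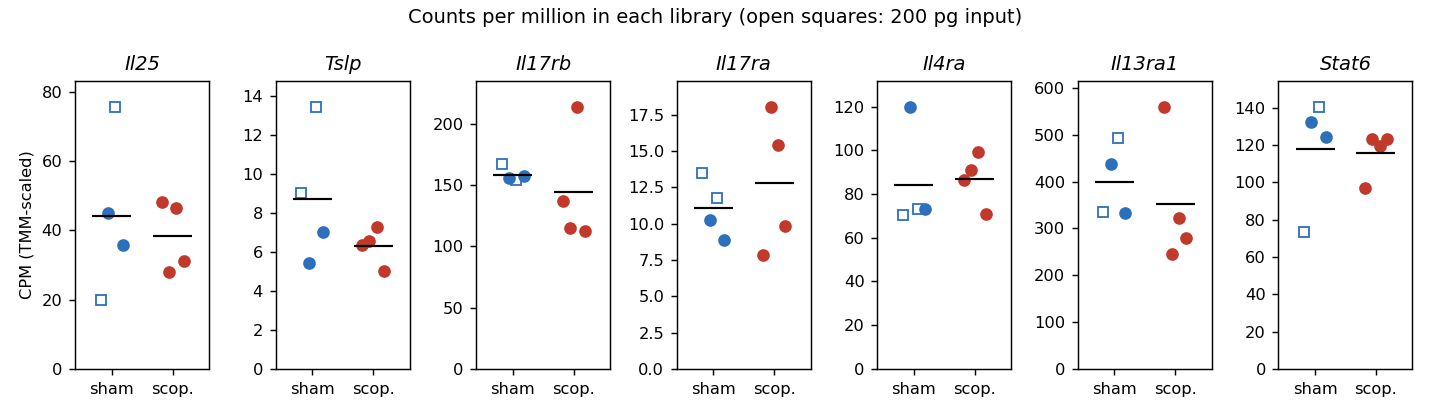
CPM of the 7 detected genes in each of the 8 libraries, 1 panel per gene with its own linear axis from 0. Points are single mice, open squares mark the 2 sham libraries from 200 pg, and horizontal bars are group means. The scopolamine and sham points overlap in all 7 panels, and Il25 runs from 19.8 to 75.5 CPM within the sham group alone.

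Il25 encodes the cytokine through which tuft cells activate group 2 innate lymphoid cells. It lies on the plus strand at chr14:54932695-54935837 of GRCm38 and had between 521 and 3045 counts per library. Its level was 48.2, 28.0, 46.4 and 31.1 CPM in scopolamine replicates 1 to 4 and 19.8, 45.1, 75.5 and 35.9 CPM in sham replicates 1 to 4. The scopolamine mice lay inside the range of the sham mice, and the lowest and the highest of the 8 values were the sham libraries amplified from 200 pg. The means were 38.4 ± 10.3 CPM in scopolamine-treated mice and 44.1 ± 23.5 CPM in sham mice (SD, n = 4 each). The log2 fold change was -0.20 (SE 0.37, 95% interval -1.03 to 0.63, adjusted p = 0.963 in edgeR), and an exact permutation test over the 70 assignments of mice to groups gave p = 0.857, two-sided. The interval spans folds of 0.491 to 1.55. Without sham replicate 3 the log2 fold change was 0.19, so the sign rested on that library.

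Tslp encodes thymic stromal lymphopoietin, a cytokine of barrier epithelia. It spans chr18:32815383-32819797 on the plus strand and overlaps the noncoding gene 4930455D15Rik on the other strand, with which reads could be shared because no source used here states a strand-aware counting. Tslp was measured at 6.37, 6.56, 7.28 and 5.02 CPM with scopolamine and at 9.02, 5.43, 13.4 and 7.02 CPM in sham. It was highest in both sham libraries amplified from 200 pg, and the other sham values fell inside the scopolamine range. Tslp gave a log2 fold change of -0.47 (SE 0.49, 95% interval -1.55 to 0.61, adjusted p = 0.903 in edgeR; exact permutation p = 0.229, two-sided), the largest in size of the 7. Without the 200 pg libraries it was -0.0098.

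Il33 encodes a nuclear cytokine that is released from damaged cells, and spans chr19:29925114-29960718 on the plus strand. It had 2 counts in scopolamine replicate 2, 3 counts in scopolamine replicate 4 and 0 in the other 6 libraries. Every library was therefore at or under the floor of 3 counts, and no fold is given. That floor corresponds to 0.0730 to 0.212 CPM over the 8 libraries. Floors and intervals of counts cover counting error only, since amplified reads without molecular identifiers are not independent molecules.

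Il17rb encodes the chain of the IL-25 receptor that binds the cytokine, and tuft cells are known to carry it. It lies on the minus strand at chr14:29996135-30008896 and overlaps Actr8 on the opposite strand. Il17rb was measured at 137, 115, 213 and 112 CPM with scopolamine and at 167, 155, 154 and 157 CPM in sham. The 4 sham mice lay close together, while 3 of the 4 scopolamine mice were below all of them and the fourth, replicate 3, was above all of them. The means were 144 ± 47.3 CPM in scopolamine-treated mice and 158 ± 5.92 CPM in sham mice (SD, n = 4 each), with a log2 fold change of -0.13 (SE 0.21, 95% interval -0.59 to 0.32, adjusted p = 0.944 in edgeR; exact permutation p = 0.4, two-sided).

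Among the scopolamine libraries, the level of Il17rb went with the summed level of the tuft cell markers. Scopolamine replicate 3, the highest in Il17rb, also had the highest tuft marker sum at 23984 CPM, and scopolamine replicates 2 and 4, the lowest in Il17rb, had the lowest sums at 14842 and 13826 CPM. Expressed per 1000 CPM of tuft markers, Il17rb was at 7.92 ± 0.83 in scopolamine-treated mice and 8.07 ± 0.709 in sham mice (SD, n = 4 each). On that scale its coefficient of variation was 10.5% with scopolamine, against 32.8% in CPM, and 8.79% in sham, against 3.74% in CPM, so the scaling narrowed the scopolamine group and widened the sham group. Over the 8 libraries together it was 8.99%, against 21.2% in CPM. Over the 8 libraries the same step took the coefficient of variation of Il25 from 41.3% to 33.9% and that of Il13ra1 from 29.1% to 23.3%, whereas that of Stat6 went from 18.4% to 28.3% and that of Il17ra from 29.2% to 38.4%. Among the genes tested, those whose log2 CPM followed Il17rb most closely over the 8 libraries were Sh2d6 (r = 0.979), one of the tuft markers of that sum, Cyp11a1, which makes pregnenolone from cholesterol (r = 0.966), and Gclm, a subunit of the glutathione-making enzyme (r = 0.966). These correlations, and those for Il25 below, are descriptions over 8 libraries that share depth, input and cell purity.

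Il17ra encodes the chain that IL-17RB shares with other receptors of the IL-17 family, and spans chr6:120463247-120487559 on the plus strand. It was measured at 7.82, 18.01, 15.4 and 9.85 CPM with scopolamine and at 13.5, 10.2, 11.7 and 8.87 CPM in sham. The lowest and the highest values were both scopolamine mice, and the sham mice lay between them. The log2 fold change was 0.20 (SE 0.41, 95% interval -0.70 to 1.105, adjusted p = 0.966 in edgeR; exact permutation p = 0.657, two-sided), and it was -0.017 without scopolamine replicate 2.

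The 3 libraries highest in Il17ra, scopolamine replicates 2 and 3 and sham replicate 1, were also the 3 highest in summed enterocyte markers, at 7099, 6330 and 6685 CPM against 2559 to 3620 CPM in the other 5. Fabp1 was the largest part of each sum, at 4315, 4587 and 5280 CPM in these 3 libraries. In the other 5 it was at 2132 to 2624 CPM, so the order of the sums rests largely on that gene. The same 3 libraries had the lowest level of Y-linked transcripts, a mean log2 CPM of -0.68, -0.65 and -0.57 over 4 genes against 3.94 to 4.47 in the others, so the enterocyte sum and the Y-linked level moved together here. Their part in the Il17ra values was not tested.

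**Figure D2:**
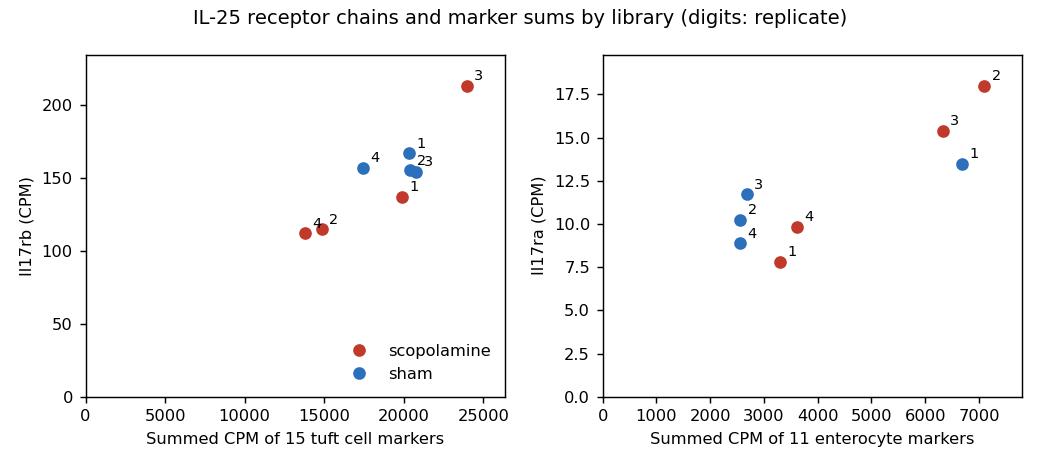
CPM of a receptor gene on the vertical axis against the summed CPM of a marker list on the horizontal axis, both linear from 0, 1 point per library, coloured by group and labelled with its replicate number. Il17rb is lowest and highest in the libraries that are lowest and highest in the tuft marker sum, and Il17ra is highest in the 3 libraries with an enterocyte marker sum of 6330 CPM or more. Fabp1 is the largest part of the enterocyte sum in every library.

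Il4ra encodes the chain common to the receptors for IL-4 and IL-13. It lies on the plus strand at chr7:125552120-125579474 and overlaps the antisense gene Gm44876. Il4ra was measured at 86.6, 91.0, 99.0 and 70.7 CPM with scopolamine and at 70.3, 119.8, 73.1 and 73.3 CPM in sham. Sham replicate 2 was above all other libraries, and the other 3 sham mice lay near the lowest scopolamine mouse. The log2 fold change was 0.05 (SE 0.21, 95% interval -0.42 to 0.52, adjusted p = 0.991 in edgeR; exact permutation p = 0.8, two-sided). It was 0.26 without sham replicate 2 and just below 0 without scopolamine replicate 3 or any 1 of the other sham mice.

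Il13ra1 encodes the chain that binds IL-13 and pairs with IL-4Rα in epithelial cells, and spans chrX:36112110-36171259 on the plus strand. It was measured at 559, 245, 323 and 281 CPM with scopolamine and at 334, 438, 492 and 332 CPM in sham. Scopolamine replicate 1 was the highest of the 8 and the other 3 scopolamine mice were the lowest. The means were 352 ± 142 CPM in scopolamine-treated mice and 399 ± 79.3 CPM in sham mice (SD, n = 4 each), with a log2 fold change of -0.18 (SE 0.26, 95% interval -0.75 to 0.38, adjusted p = 0.934 in edgeR; exact permutation p = 0.429, two-sided). Without scopolamine replicate 1 it was -0.50, still short of the threshold.

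Il13ra2 encodes a second IL-13 receptor that binds the cytokine without passing on the STAT6 signal and is known as a decoy. It spans chrX:147383476-147429192 on the minus strand. It had 0 counts in all 8 libraries, which allows up to 3 counts, or 0.0730 to 0.212 CPM, in a library.

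Stat6 encodes the transcription factor that IL-4 and IL-13 activate. It lies on the plus strand at chr10:127642986-127660957 and overlaps Nab2 on the opposite strand. Stat6 was measured at 97.1, 123, 119.5 and 123 CPM with scopolamine and at 73.3, 133, 140.4 and 125 CPM in sham. The lowest mouse of each group was the one sequenced from 3000 cells, and the other 6 libraries lay between 119.5 and 140.4 CPM. The part of cell number in this was not tested. The log2 fold change was -0.02 (SE 0.21, 95% interval -0.49 to 0.44, adjusted p = 0.996 in edgeR; exact permutation p = 1, two-sided), and the sign changed when scopolamine replicate 1 or sham replicate 2, 3 or 4 was left out, with values from -0.21 to 0.071 over all 8 such fits.

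**Figure D3:**
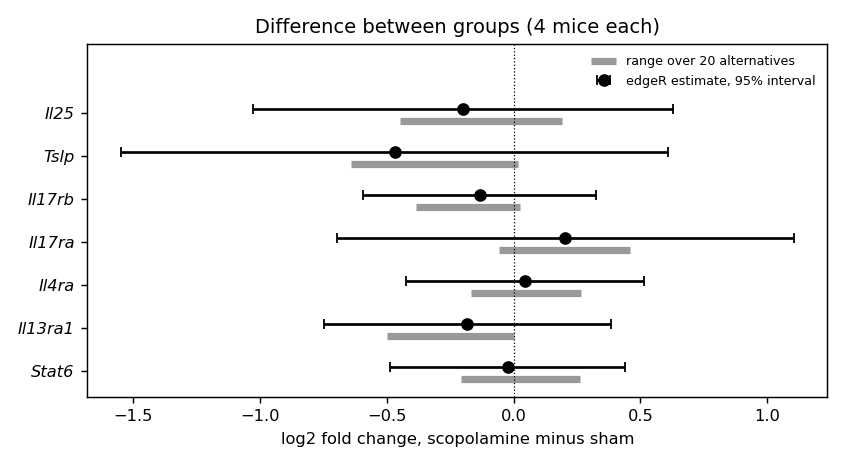
Log2 fold change of scopolamine over sham for the 7 detected genes, with the 95% interval of edgeR's fit as horizontal lines and a vertical line at 0. Every interval includes 0, and those of Tslp, Il17ra and Il25 are the widest.

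Compared per length, as counts per kilobase of exons scaled to the same sum in every library, the IL-13-binding chain Il13ra1 was the most abundant of the 7 genes and the shared chain Il17ra the least. Averaged over the 8 libraries, the per-length level was 225 for Il13ra1, 91.1 for Il17rb, 86.2 for Il25, 59.3 for Stat6, 32.02 for Il4ra, 12.5 for Tslp and 3.10 for Il17ra. Among the 21805 genes with a count, Il13ra1 lay at percentile 97.1, Il17rb at 93.7 and Il25 at 93.5, while Il17ra lay at 57.6. Neighbours in this order kept it in 8 of 8 libraries for Il13ra1 over Il17rb, Stat6 over Il4ra, Il4ra over Tslp and Tslp over Il17ra, and in 7 of 8 for Il25 over Stat6. Il17rb was above Il25 in 5 of 8 libraries, so those neighbours were not separated beyond the spread between mice. The order of the means was the same with the length of the longest transcript in place of all exons.

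The chains of each receptor were present at unequal per-length levels in every library. Il17rb exceeded Il17ra by 14.9 to 40.98 times with scopolamine and by 28.9 to 41.4 times in sham. Il13ra1 exceeded Il4ra by 4.35 to 10.4 times with scopolamine and by 5.92 to 10.9 times in sham. The cytokine Il25 stood at 2.74 to 10.4 times the per-length level of Tslp. These are ratios of RNA, and the protein was not measured.

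**Figure D4:**
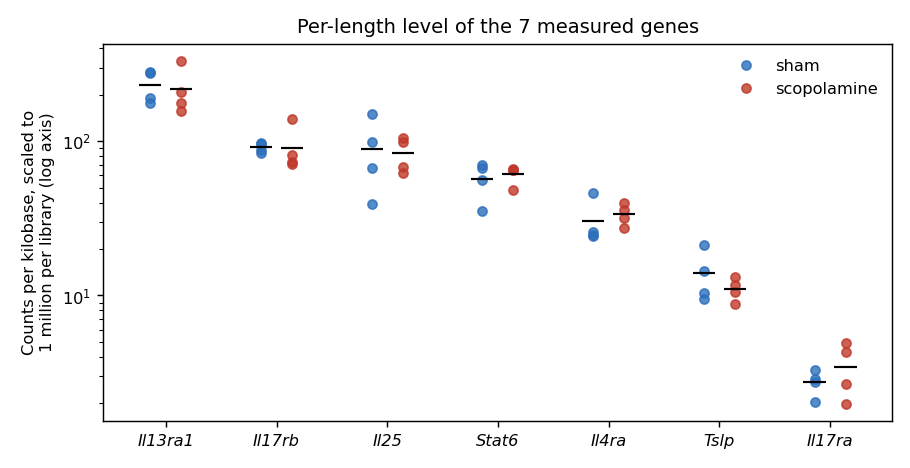
Per-length level of the 7 detected genes on a log axis, as counts per kilobase of exons scaled to the same sum in every library, with 1 point per library coloured by group and bars at the group means. Il13ra1 is highest and Il17ra lowest in every library, and the points of Il17rb and Il25 overlap.

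Promoter sequence was available here for 6 of the 9 genes, as RefSeq windows on GRCm38.p6 from 250 bases before to 50 after an annotated start. Each window was searched on both strands for TTCNNNNGAA, the spaced palindrome that STAT6 prefers, for TTCNNNGAA, the form shared by other STAT factors, and for ATGCAAAT, the octamer bound by POU factors, the class of the tuft lineage factor Pou2f3. The windows of Il17rb, Il13ra1, Il13ra2 and Stat6 held none of the 3, and TTCNNNGAA was in none of the windows of the 6 genes. The matches lay in Il4ra, which was read in every library, and in the 2 windows of Il33, which was not above the floor. Il17rb, Il13ra1 and Stat6 were also read in every library but held no match, so the matches did not follow detection. The match is in capitals with 10 flanking bases on each side, all on the plus strand, and the Il33 octamer reads on the minus strand.
Il4ra octamer, chr7:125552122-125552149: ggggtggggcATGCAAATaagccagcga
Il33 STAT6 palindrome, chr19:29925067-29925096: ctctgccaagTTCTGGGGAAtaaaaagccc
Il33 octamer, chr19:29945693-29945720: atatcgctccATTTGCATaactttactc
Counted from the RefSeq start of each window, the matches begin at -139, -36 and -87. The starts behind both octamer matches lie inside the GENCODE genes given above, and both octamers are within those genes and not upstream of them. Over all genes with a window, 8.01% held TTCNNNNGAA, 9.55% held TTCNNNGAA and 1.97% held ATGCAAAT. These are matches of letters and not measured binding sites.

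The other genes of IL-4 and IL-13 receptor signalling were taken from a list of 17 genes, a receptor chain with kinases, adaptors, STAT factors and inhibitors, of which 16 passed the filter. With edgeR 0 of 16 passed the adjusted threshold, 6 had a log2 fold change above 0 and 10 below, against 49.1% of all genes above 0, and the median was -0.089. Scaled to the tuft markers, which moves all genes up, 13 were above 0 and 3 below. The most abundant was Ptpn6, the phosphatase SHP-1 that limits cytokine receptor signalling, at 1383 ± 360.1 CPM in scopolamine-treated mice and 1485 ± 221 CPM in sham mice (SD, n = 4 each). The insulin receptor substrate Irs2, an adaptor of IL-4Rα, stood at 234 ± 57.1 and 210.4 ± 63.5 CPM, and the phosphatase Ptpn1 at 102 ± 9.43 and 106 ± 23.9 CPM. Socs3, an inhibitor of JAK and STAT signalling singled out after its values were seen, was at 5.17, 5.58, 6.92 and 10.9 CPM with scopolamine and at 0.0379, 4.75, 0.0744 and 0.239 CPM in sham. Every scopolamine value was above every sham value for Socs3, as for 1.92% of all genes, but it was at 3 counts or fewer in both sham libraries from 200 pg, and its log2 fold change of 2.48 (SE 1.32) had an adjusted p = 0.813 in edgeR (exact permutation p = 0.0286, two-sided, the smallest that 4 against 4 mice allow). Il2rg, the chain that pairs with IL-4Rα on lymphocytes, also singled out after its values were seen, was at 1.05 to 2.95 CPM with scopolamine and at 6.79 CPM in sham replicate 1 against 0.0299 to 0.0992 CPM in the other 3 sham mice. Summed lymphocyte markers were likewise at 22.6 to 98.3 CPM with scopolamine and at 118 CPM in sham replicate 1 against 3.55 to 5.71 CPM in the other 3 sham mice. Their part in the Il2rg values was not tested.

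Of 18 genes of IL-17 family signalling, 3 further receptor chains with adaptors and regulators, all 18 passed the filter and 0 passed the adjusted threshold in edgeR. The log2 fold change was above 0 for 14 and below 0 for 4, against 49.1% of all genes above 0, with a median of 0.19. The 3 most abundant were Nfkbia, the inhibitor of NF-κB, at 233 ± 37.2 CPM in scopolamine-treated mice and 186 ± 24.5 CPM in sham mice (SD, n = 4 each), Il17rc, the IL-17RA partner for IL-17A and IL-17F, at 116 ± 55.5 and 72.9 ± 20.3 CPM, and the adaptor Traf4 at 73.7 ± 17.0 and 65.9 ± 24.2 CPM. Il17re, the receptor chain for IL-17C, was the 1 gene of the 18 with an unadjusted p under 0.05, a threshold that 5.99% of all genes passed, at 1.75 ± 1.54 and 0.316 ± 0.256 CPM (log2 fold change 2.46, SE 0.98, adjusted p = 0.812 in edgeR).

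The partner chains for TSLP and IL-33 were at low levels. Of Crlf2, Il7r, Il1rl1 and Il1rap, 2 passed the filter and 0 passed the adjusted threshold in edgeR. Crlf2, the TSLP-binding chain, was at 2.23 ± 1.45 CPM in scopolamine-treated mice and 0.824 ± 0.313 CPM in sham mice (SD, n = 4 each), and Il1rap at 1.84 ± 2.51 and 1.81 ± 3.40 CPM. For Il1rap 1 mouse in each group set the mean, scopolamine replicate 3 at 5.58 CPM against 0.331 to 0.938 CPM in the others and sham replicate 1 at 6.90 CPM against 0.0243 to 0.239 CPM. Its log2 fold change was 0.020. Without the 200 pg libraries Il1rap passed the filter only through the scopolamine libraries. That fixes its direction, and no fold is given for that comparison. The lymphocyte cytokines at the other end of the loop were not detectable at this depth. Il5, Il9 and Il13 had 0 counts in all 8 libraries, and Il4 had 2 counts in sham replicate 3 and 0 elsewhere.

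A list of 13 genes of the intestinal epithelium known to respond to IL-4 and IL-13, most of them products of goblet and Paneth cells or of enterocytes, was read as the output of the circuit. Of the 13, 11 passed the filter and 0 passed the adjusted threshold in edgeR or DESeq2. Their log2 fold change was above 0 for 10 and below 0 for 1, against 49.1% of all genes, with a median of 1.53. Without sham replicate 1 alone the median was 2.86. The 3 most abundant were Fcgbp, a mucus protein of goblet cells, at 289 ± 141 CPM in scopolamine-treated mice and 129 ± 112 CPM in sham mice (SD, n = 4 each), Sprr2a2, a small proline-rich protein, at 235 ± 129.9 and 60.9 ± 75.9 CPM, and Clca1, a goblet cell secretory protein, at 199 ± 194 and 69.0 ± 76.1 CPM. Sprr2a2 stood at 409, 156, 256 and 118 CPM with scopolamine and at 164, 2.78, 71.1 and 5.32 CPM in sham. Its groups overlapped only through sham replicate 1, which like sham replicate 3 came from 200 pg. At an unadjusted p under 0.05 in edgeR there were 2 of the 11, against 5.99% of all genes. Itln1 had a log2 fold change of 3.49 (SE 1.13, adjusted p = 0.812) and was at 416 CPM in scopolamine replicate 4. Sprr2a3 had 1.97 (SE 0.82, adjusted p = 0.812). Its groups did not overlap, at 4.31 to 6.58 CPM with scopolamine and 0.347 to 3.34 CPM in sham, a separation that 1.92% of all genes showed.

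Without the 2 sham libraries from 200 pg, 12 genes of the response list passed the filter. Gsdmc3 and Sprr2a1 had 0 counts in both remaining sham libraries and passed only through the scopolamine libraries, which fixes their direction. The other 10 all had a log2 fold change above 0, against 50% of all genes tested in that comparison, with a median of 3.89. In that comparison of 4 mice with 2, Sprr2a2 was higher with scopolamine by a log2 fold change of 5.83 (SE 0.67, adjusted p = 0.0281 in edgeR), and was the 1 gene of the list past the threshold, which 0.0649% of the 13869 genes tested passed. Sprr2a2 has near-identical copies, Sprr2a1 and Sprr2a3, among which the counting could split reads, so its value is uncertain. In the same comparison of 4 mice with 2, markers of some other cell types also had a log2 fold change above 0. These were 11 of 11 for enterocytes, 7 of 7 for goblet cells and 4 of 4 for Paneth cells, with medians of 3.25, 2.89 and 4.42. Below 0 were 10 of 15 tuft markers (median -0.065) and 3 of 4 stem cell markers (median -0.41). The 2 fibroblast and endothelial markers tested were also below 0 (median -0.65). No counts are given for enteroendocrine cells, for lymphocytes or for mast cells and macrophages. Their lists hold genes low in both remaining sham libraries, among them Gcg, Cd8a and C1qb, that passed the filter only through the scopolamine libraries. That fixes the direction of such genes. Most markers of the cell types that make the products of the response list also had a log2 fold change above 0 over all 8 libraries, namely 11 of 11 for enterocytes, 6 of 7 for goblet cells and 4 of 4 for Paneth cells, with medians of 1.62, 1.17 and 2.76. Summed goblet markers ran from 655 to 3483 CPM with scopolamine and from 322 to 1301 CPM in sham, and summed Paneth markers from 31.8 to 971 CPM and from 13.5 to 74.0 CPM. Of the enterocyte markers, DESeq2 called 2 over all 8 libraries, Slc5a1, the sodium and glucose transporter (adjusted p = 0.00459), and the aminopeptidase Anpep (adjusted p = 0.0395), where edgeR called 0. Without the 200 pg libraries edgeR called Slc5a1 (log2 fold change 3.94, SE 0.49, adjusted p = 0.0444). Clca1, Agr2, Spdef and Fcgbp stand on both the response list and the goblet list, and Ang4 and Itln1 on both the response list and the Paneth list. The part of these cell types in the values of the response genes was not tested.

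**Figure D5:**
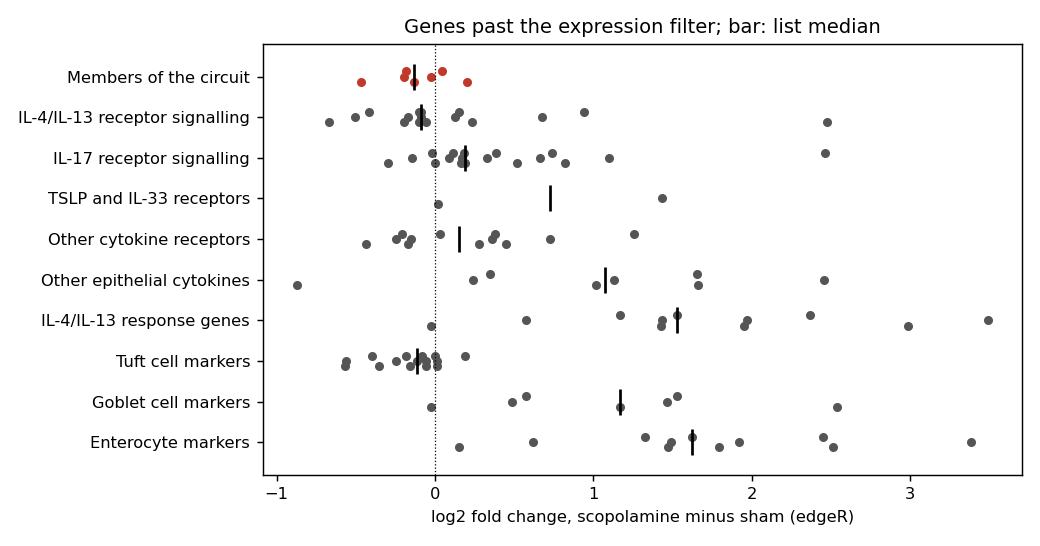
Log2 fold change of scopolamine over sham in edgeR for the detected genes of the circuit, for its pathway lists and for tuft, goblet and enterocyte markers, 1 row per list and 1 point per gene past the filter, with a bar at the median and a dotted line at 0. The receptor signalling lists centre near 0, with medians of -0.089 and 0.19, and the response genes lie mostly above it with a median of 1.53.

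Il25 was followed most closely over the 8 libraries by genes that are not markers of the circuit. The 3 highest correlations of log2 CPM among the genes tested were with Cyren (r = 0.983), a regulator of DNA end joining, Riok3 (r = 0.973), an atypical kinase, and Rmnd5b (r = 0.958), a ubiquitin ligase subunit. The correlation of Il25 was 0.24 with Il17rb, 0.68 with Il13ra1, 0.64 with Stat6 and -0.29 with Il17ra.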

How the data were processed

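RNA was amplified with the Clontech Ultra Low v4 kit and made into Nextera XT libraries, 1 per mouse. The authors assigned reads to GRCm38 transcripts with kallisto 0.44.0 after bcl2fastq 2.20, versions per the submitters' processing notes, summed them per gene with tximport and deposited estimated counts without normalization. These are whole numbers, so rounding changed none, and annotation release and strand are not given in the sources used here. RNA input and cycles come from the study's source data. Replicates are numbered 1 to 4 in each group in the order of deposit, so the numbers pair no mice. Libraries of a group differed by far more than sampling noise, with chi-square values per degree of freedom of at least 67.5.

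Counts were tested with edgeR 4.0.16 (R 4.3.3), by its quasi-likelihood fit with TMM factors and the filterByExpr filter, at a Benjamini-Hochberg adjusted p under 0.1, on all 8 libraries without covariates. Two-sided exact permutation tests used log2 CPM with a prior count of 2. DESeq2 1.42.0 and limma 3.58.1 were alternatives, with those given in the closing section. The scripts were tested on simulated data. Coordinates and lengths are from GENCODE M21. The members, lists and tests were chosen with earlier results of these data known. Named genes were all 9 members, from each pathway list the 3 highest in mean CPM, any list gene past the threshold, and the 3 genes most correlated with Il25 and with Il17rb. Others are said to be chosen after their values were seen, passed an unadjusted p under 0.05, or are named to state a limit or an overlap of lists. ZSgreen-negative cells were not analysed here.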

Additional observations from a re-analysis of the deposited data

Results flagged for a closer look

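In 2 of the 14 groups examined, the 7 detected genes in 4 mice per treatment, 1 mouse stood apart from the other 3, with a gap to its neighbour, as a share of the group's range, above Dixon's 95% critical value for 4 samples. Chance gives about 1 such group in 20. Il4ra was at 119.8 CPM in sham replicate 2, against 70.3 to 73.3 CPM in the other sham mice, a gap of 0.941 of the range. Stat6 was at 97.1 CPM in scopolamine replicate 1, against 119.5 to 123 CPM in the other scopolamine mice, a gap of 0.852 of the range.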

How the results depend on the processing

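The 7 detected genes were refitted under 20 alternatives, 12 of method or covariate and 8 leaving out 1 mouse. None of the 140 values passed the adjusted threshold (smallest adjusted p = 0.624, for Il13ra1), and at an adjusted p under 0.05 the fit reported also called 0 of the 7. Of the 140, 23 values changed sign, all for genes with intervals that include 0 in the fit reported. Mouse ID series is the letter in the mouse ID, whose meaning no source used here explains, and it is unbalanced, with 3 of 4 scopolamine mice and 1 of 4 sham mice in series M and the others in N. With it as a covariate the log2 fold change was 0.15 for Il25, -0.018 for Il17ra and 0.26 for Stat6, and with the Y-linked level as a covariate 0.038, -0.057 and 0.083. Scaled to the tuft markers it was 0.025 for Il17rb, 0.0022 for Il13ra1 and 0.22 for Stat6, and with library size only 0.013 for Stat6. The tuft scaling moved the median of all genes by 0.23. Without the 200 pg libraries it was -0.17 for Il4ra, and with amplification cycles as a covariate -0.15 for Il4ra and 0.019 for Tslp. Leaving out each mouse in turn gave -0.45 to 0.19 for Il25, -0.017 to 0.38 for Il17ra, -0.040 to 0.26 for Il4ra and -0.21 to 0.071 for Stat6. The ranges that kept their sign were -0.39 to -0.038 for Il17rb, -0.50 to -0.049 for Il13ra1 and -0.64 to -0.18 for Tslp. The cause of these shifts was not tested. Counts of list genes above 0, compared over the same alternatives after the data were seen, ran from 7 of 8 to 11 of 11 for the response genes past the filter in the fit reported and from 11 to 17 of at most 18 for the IL-17 list. The median log2 fold change of the response genes, 1.53 as reported, was 2.50 with limma-voom. With 1 mouse left out it was 1.13 to 2.86, highest without sham replicate 1. Without the 200 pg libraries the median was 3.89 over 10 of the 11 genes. Sprr2a1 was left out there, since its 0 counts in both remaining sham libraries fix its direction. With amplification cycles as a covariate the median was 4.30 over all 11, Sprr2a1 included, so that value carries the same limit. The low counts of Il33 and Il13ra2 limit any statement on them to the floor. No paired analysis was possible because the labels give the mice no replicate numbers.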

Other observations

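Of 16 receptors for other cytokines, 12 passed the filter, with 7 above and 5 below a log2 fold change of 0 and 0 past the adjusted threshold in edgeR. Il10rb, a chain of the receptors for IL-10, IL-22 and interferon lambda, was the most abundant at 172 ± 51.2 CPM in scopolamine-treated mice and 205 ± 16.5 CPM in sham mice (SD, n = 4 each). Tnfrsf1a was at 57.0 ± 10.6 and 55.7 ± 8.80 CPM. Both chains of the interferon gamma receptor were present. Ifngr2 was at 121 ± 14.985 and 100.2 ± 37.9 CPM, and Ifngr1, singled out after its values were seen, at 33.6, 64.3, 29.7 and 37.1 CPM with scopolamine and 28.2, 29.5, 20.3 and 21.4 CPM in sham. All scopolamine values of Ifngr1 were above all sham values, the nearest by a small margin (log2 fold change 0.73, SE 0.29, adjusted p = 0.812 in edgeR; exact permutation p = 0.0286, two-sided, the smallest possible), where 3.88% of all genes tested were separated in either direction.

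Of 14 other epithelial cytokines, 8 passed the filter, 7 above and 1 below 0, the median at 1.08 on the log2 scale, and 0 past the threshold in edgeR. Il18 and Tnfsf10 were both high in 1 sham mouse. Il18 was at 14.6 ± 7.73 CPM in scopolamine-treated mice and 4.65 ± 6.77 CPM in sham mice (SD, n = 4 each), and Tnfsf10, the death ligand TRAIL, at 8.17 ± 5.51 and 1.49 ± 2.17 CPM. Ccl20 was at 3.49 ± 3.35 and 1.72 ± 1.31 CPM. Il18 was at 14.7 CPM in sham replicate 1 and at 0 to 2.02 CPM in the other sham mice, and its log2 fold change of 1.66 became 3.84 when the 200 pg libraries were left out (adjusted p = 0.543 in edgeR). Tnfsf10 was at 4.74 CPM in sham replicate 1 and at 0.273 to 0.508 CPM in the other sham mice. Sham replicate 1 was a 200 pg library and the sham library highest in both enterocyte markers (6685 CPM) and lymphocyte markers (118 CPM), and their part in these values was not tested.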
